A study of Mus musculus with 8 samples.

Results

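The genes described here encode the MHC class II chains and the proteins that load them with peptide, measured in beta cells of NOD mice sorted into a top and a bottom population. They were taken by name, and all 9 were found among the 23366 genes of the deposited table: H2-Aa, H2-Ab1, H2-Eb1, Cd74, H2-DMa, H2-DMb1, H2-DMb2, Ciita and Ctss. NOD is an inbred strain that develops autoimmune diabetes, and every library came from its pancreas at an age of 8 to 10 weeks, with no treatment, transgene or other allele named in the labels. Each population gave 4 libraries of about 1000 cells, amplified as cDNA from total RNA, of which numbers 1 and 2 belong to batch 1 and numbers 3 and 4 to batch 2. The labels name neither the property by which cells were sorted into top and bottom nor the animals behind each library. Tests here therefore weigh differences against library-to-library scatter, part of which may be technical.

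MHC class II molecules are pairs of an alpha and a beta chain that show peptides from the endosomes to CD4 T cells. Dendritic cells, macrophages and B cells carry them at rest, and many other cell types can be made to do so by interferon gamma, which turns on the transactivator Ciita. The invariant chain Cd74 fills the groove of new molecules until the protease cathepsin S (Ctss) trims it, and H2-DM then exchanges the remaining fragment for a peptide. NOD mice carry the H2g7 haplotype, whose I-A molecule (H2-Aa with H2-Ab1) is a major inherited factor of their diabetes, and they make no I-E molecule because the E alpha chain is not expressed.

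Total estimated counts ranged from 6657639 to 11262368 per library. Insulin transcripts (Ins1 and Ins2) made up 26.6% to 40.1% of the counts in top and 2.75% to 7.16% in bottom, so the defining beta cell hormone was present in all libraries, while the beta cell factor Mafa had 0 counts. Summed delta cell markers stood at 2655 to 5305 CPM (estimated counts per 1000000 after scaling of the libraries) in top and at 33452 to 57805 in bottom, and summed intestinal epithelial markers reached 28812 and 6771 CPM in bottom 1 and bottom 2 against 41.0 to 1886 in the other 6 libraries. Fewer cells of a type and less RNA per cell cannot be told apart in such bulk libraries. Top 3, a batch 2 library, stands apart from top 1, top 2 and top 4 in most of the 9 genes, so the tests below are given with and without it.

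A sequence shared by several class II genes, though not shown here for all 9, lies just before their starts. It is the SXY module, where the X box binds the RFX complex and CREB, the Y box binds NF-Y, and Ciita docks on the assembled proteins. RefSeq promoters of build GRCm38.p6, from the C57BL/6J strain and not from NOD, matched 6 of the 9 genes by symbol, with 7 starts in all. H2-Ab1, Cd74 and Ciita were not matched. The windows below run from 150 to 21 bases before the start, except for Ctss, where the last 60 bases are shown. They are chr17:34287844-34287973 on the minus strand for H2-Aa and, on the plus strand, chr17:34305717-34305846 for H2-Eb1, chr17:34153041-34153170 for H2-DMb1, chr17:34145099-34145228 for H2-DMb2 and chr3:95526726-95526785 for Ctss. Capitals mark an X box core, a cyclic AMP response element (TGACGTCA), a Y box (TGATTGG) or, in Ctss, an interferon-stimulated response element. The X box core was searched as capitalized, with any base allowed as the fourth, and the interferon-stimulated response element likewise, with any base as the fifth and the sixth.
H2-Aa: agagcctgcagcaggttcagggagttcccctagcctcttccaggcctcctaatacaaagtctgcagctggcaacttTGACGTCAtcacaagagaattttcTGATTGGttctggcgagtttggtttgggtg
H2-Eb1: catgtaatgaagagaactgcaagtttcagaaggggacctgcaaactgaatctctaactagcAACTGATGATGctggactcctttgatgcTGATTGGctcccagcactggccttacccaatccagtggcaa
H2-DMb1: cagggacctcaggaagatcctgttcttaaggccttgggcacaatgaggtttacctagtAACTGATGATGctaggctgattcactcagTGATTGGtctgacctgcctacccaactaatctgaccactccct
H2-DMb2: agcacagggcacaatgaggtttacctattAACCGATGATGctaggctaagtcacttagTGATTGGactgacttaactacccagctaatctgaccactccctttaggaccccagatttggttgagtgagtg
Ctss: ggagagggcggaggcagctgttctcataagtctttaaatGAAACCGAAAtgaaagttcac

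H2-Aa, H2-Eb1 and both H2-DM beta genes carried the Y box, within 92 to 44 bases before the start. In H2-Eb1, H2-DMb1 and H2-DMb2 an X box core preceded it, with 17, 18 and 18 bases between them. H2-Aa had no X box core by these letters, but a cyclic AMP response element lay 16 bases before its Y box. Ctss held none of these 3 motifs in the 250 bases searched, and its response element lay 21 to 12 bases before the start. Neither start of H2-DMa matched any of the 4 motifs. Both strands were searched and no motif overlapped another in these windows. Over 32851 RefSeq starts, the same 250 bases held the Y box in 7.23%, the cyclic AMP response element in 1.55%, the interferon-stimulated response element in 2.98% and the X box core in 0.0487%. X box core and Y box occurred together before 7 starts of 5 genes, of which 3 are H2-Eb1, H2-DMb1 and H2-DMb2. The letters were chosen with these promoters in view, and a match describes the sequence and not binding.

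**Figure D1:**
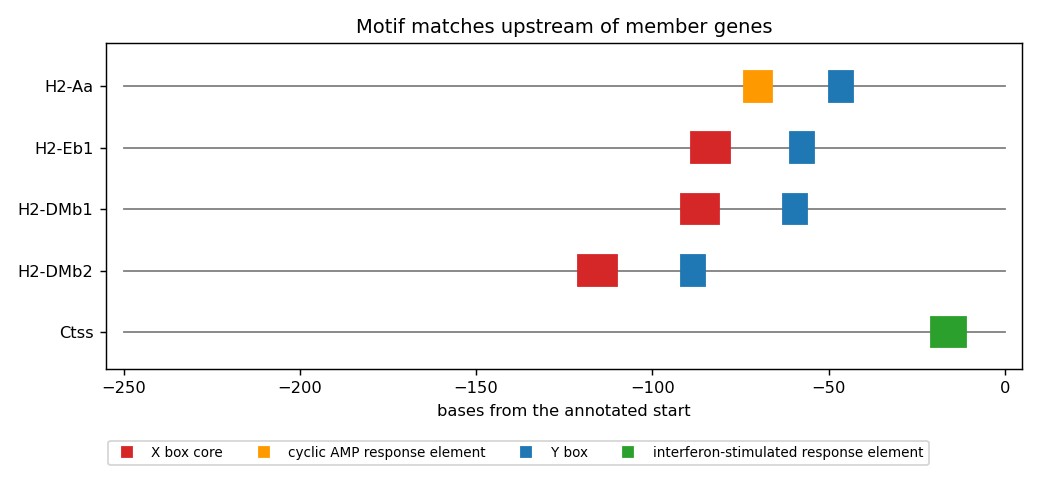
Motif matches in the 250 bases before the annotated start of 5 genes, with the distance from the start in bases on the x axis and 1 line per gene. A Y box follows an X box core in H2-Eb1, H2-DMb1 and H2-DMb2 and a cyclic AMP response element in H2-Aa, 16 to 18 bases on, while Ctss holds only an interferon-stimulated response element.

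For 6 of the 8 tested class II genes, top 1, top 2 and top 4 lay below every bottom library. Top 3 lay above at least 1 bottom library for H2-Aa, H2-Ab1, H2-Eb1, Cd74, H2-DMa and Ctss, and below all of them for H2-DMb1 and H2-DMb2. With all 8 libraries no member passed the edgeR quasi-likelihood test at an adjusted p under 0.05, beside 0.282% of the 11721 tested genes that passed as higher and 0.162% as lower in bottom, or 0.444% in either direction. The log2 fold change of bottom over top was positive for 8 of 8 tested members, where 50.1% of all tested genes were positive, and its median was 1.88 against 0.00 over all tested genes. Unadjusted p was under 0.05 for 5 members, H2-Aa, H2-Ab1, H2-Eb1, H2-DMb1 and H2-DMb2, beside 5.62% of all tested genes that were higher at that level. DESeq2 called 3 of them higher, H2-Ab1, H2-Eb1 and H2-DMb1 (adjusted p = 0.0122, 0.0297 and 0.0245), beside 3.14% of all tested genes, and limma-trend called none, beside 0.665%.

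Without top 3 the edgeR test called 3 members higher in bottom, H2-Aa, H2-Ab1 and Cd74, and 0 lower, beside 0.137% higher and 0.0885% lower of 12423 tested genes. All 8 log2 fold changes stayed positive, as did 50.9% over all tested genes. The median log2 fold change of the 8 tested members became 3.44, against 0.02 over all tested genes. Every bottom library then lay above every remaining top library for 6 of 8 members, beside 5.42% of all tested genes, where it had done so for 2 of 8, H2-DMb1 and H2-DMb2, beside 3.31%, with top 3 included. The opposite order, every bottom library below every top library, held for 0 members and for 3.91% of all tested genes. Top 3 is left out with its values known, so p-values without it describe the other 7 libraries and are not independent evidence. Leaving out any 1 of the other 7 libraries called no member.

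The alpha chain of I-A, H2-Aa, stood at 61.6, 51.2, 671 and 38.9 CPM in top 1 to top 4 and at 307, 343, 893 and 530 CPM in bottom 1 to bottom 4. Top 3 lay above 3 of the 4 bottom libraries, and the other top libraries lay below all of them. The mean was 206 ± 311 CPM in top and 518 ± 268 in bottom (SD, n = 4), and the log2 fold change from the batch-adjusted fit was 1.76 (SE 0.72, 95% interval 0.15 to 3.37, edgeR adjusted p = 0.423). Without top 3 the top mean fell to 50.6 ± 11.4 CPM (SD, n = 3) and the log2 fold change was 3.12 (SE 0.45, edgeR adjusted p = 0.0477).

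Its partner H2-Ab1, the beta chain that carries the variant residues of the NOD I-A molecule, showed the same order of populations. It stood at 32.9, 28.4, 306 and 16.0 CPM in top 1 to top 4 and at 206, 341, 510 and 411 CPM in bottom 1 to bottom 4. Top 3 lay within the range of the bottom libraries, above bottom 1, and the other top libraries lay below all of them. The log2 fold change was 2.33 with top 3 (SE 0.76, 95% interval 0.63 to 4.03, edgeR adjusted p = 0.294) and 3.76 without it (SE 0.47, edgeR adjusted p = 0.0275), a 5.04-fold and a 13.5-fold difference.

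H2-Eb1, the beta chain of I-E, which lacks its alpha partner in NOD mice, was transcribed as well. It stood at 12.5, 11.6, 105 and 10.8 CPM in top 1 to top 4 and at 33.9, 96.2, 203 and 142 CPM in bottom 1 to bottom 4. Top 3 lay above bottom 1 and bottom 2, and the other top libraries lay close together below every bottom library. The fitted difference was 4.00-fold (2.00 on the log2 scale, SE 0.65, edgeR adjusted p = 0.297), and 7.98-fold without top 3 (95% interval 1.67 to 4.32 on the log2 scale, edgeR adjusted p = 0.122), so H2-Eb1 passed in neither fit. The E alpha gene, listed as H2-Ea-ps, had 6 counts, all in top 1. NOD class II coding sequences differ from the reference strain, and whether reads of H2-Aa, H2-Ab1 or H2-Eb1 were lost for that reason was not tested.

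**Figure D2:**
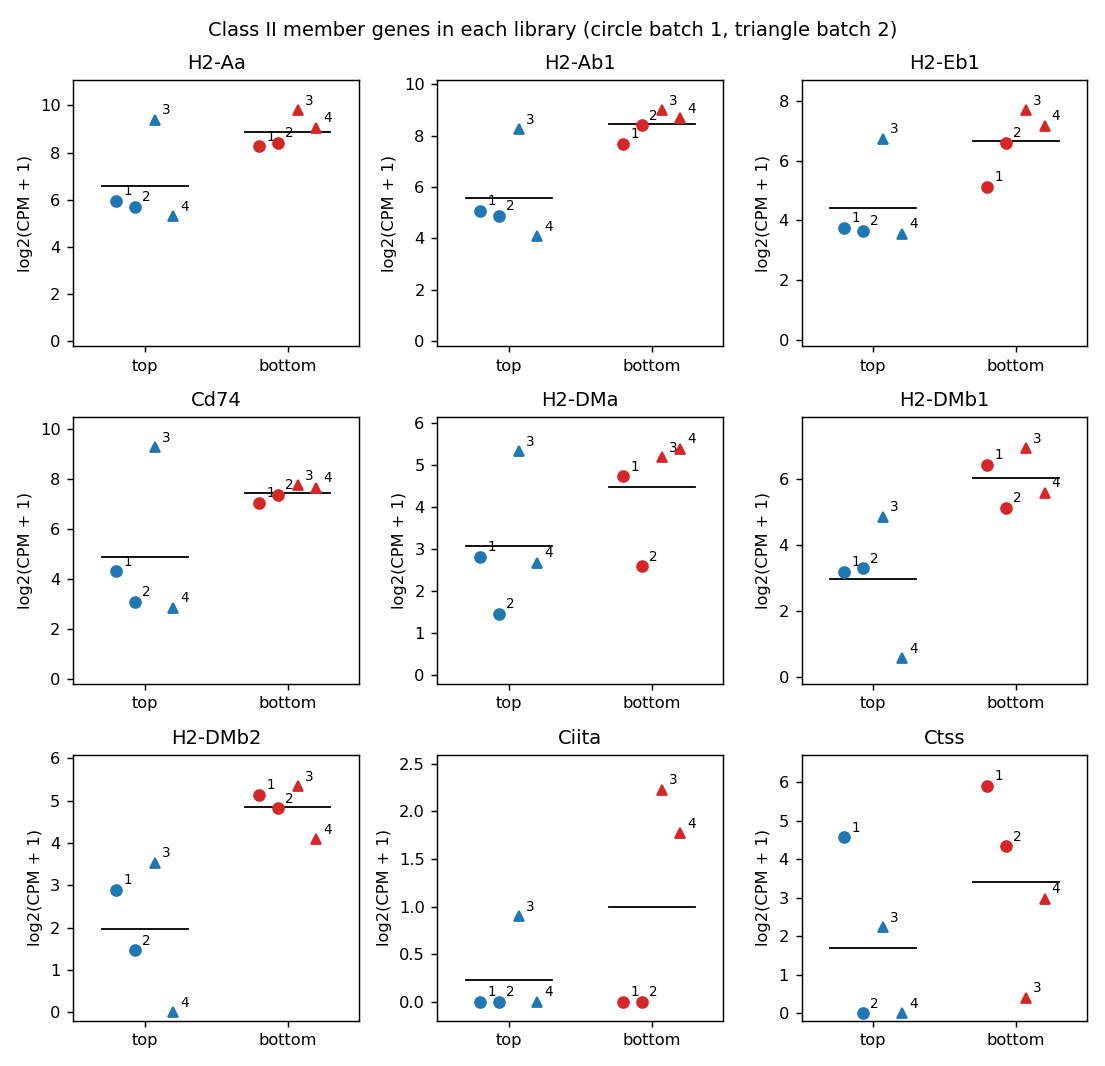
Level of each of the 9 genes in each library as log2(CPM + 1), with top libraries in blue, bottom libraries in red, circles for batch 1, triangles for batch 2, the library number beside each point and a line at the mean of 4. Top 3 sits with the bottom libraries for H2-Aa, H2-Ab1, H2-Eb1 and H2-DMa and above them for Cd74, at 612 CPM against 131 to 213, while top 1 leads the top libraries for Ctss.

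Cd74, the invariant chain, changed most with the choice of libraries. It stood at 18.8, 7.41, 612 and 6.19 CPM in top 1 to top 4 and at 131, 164, 213 and 200 CPM in bottom 1 to bottom 4. Top 3 was the highest of all 8 libraries, and the other top libraries were the lowest. The means were close, at 161 ± 300 CPM in top and 177 ± 37.2 in bottom (SD, n = 4). The log2 fold change was 1.43 in the batch-adjusted fit (SE 1.37, 95% interval -1.63 to 4.50, edgeR adjusted p = 0.813) and 0.14 with no batch term (edgeR adjusted p = 0.986). Without top 3 the top mean was 10.8 ± 6.98 CPM (SD, n = 3), and the log2 fold change 4.04 (SE 0.55, 95% interval 2.78 to 5.31, edgeR adjusted p = 0.0376) was a 16.5-fold difference.

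None of the H2-DM genes, which encode the peptide exchange factor, passed the edgeR test with or without top 3. H2-DMb1 stood at 8.06, 8.79, 27.8 and 0.476 CPM in top 1 to top 4 and at 84.8, 33.7, 121 and 46.6 CPM in bottom 1 to bottom 4. Here the populations did not overlap even with top 3, and the log2 fold change was 2.69 (SE 0.91, 95% interval 0.65 to 4.73, edgeR adjusted p = 0.318). Without top 3 it was 4.00 (SE 1.06, edgeR adjusted p = 0.219).

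H2-DMb2 is a close copy of H2-DMb1: their GENCODE M21 transcripts were identical at 94.7% of 1246 aligned bases and shared 27.2% of the 50-base stretches of H2-DMb1. RSEM divides reads that match both, and how well it did so here was not tested, so their sum is given too. The sum stood at 14.5, 10.5, 38.5 and 0.476 CPM in top 1 to top 4 and at 119, 61.0, 161 and 62.6 CPM in bottom 1 to bottom 4, with no overlap between populations. Its log2 fold change was 2.68 (SE 0.92, 95% interval 0.62 to 4.74, edgeR adjusted p = 0.326), and 4.08 without top 3 (edgeR adjusted p = 0.212). H2-DMb2 alone ranged from 0 to 10.6 CPM in top and from 16.0 to 39.8 CPM in bottom. Its own log2 fold change of 2.64 had an SE of 1.15 (edgeR adjusted p = 0.469), and without top 3 it was 4.16 (SE 1.41, edgeR adjusted p = 0.315).

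The alpha chain H2-DMa overlapped between the populations with and without top 3. It stood at 6.04, 1.76, 39.2 and 5.40 CPM in top 1 to top 4 and at 25.7, 5.05, 35.6 and 41.0 CPM in bottom 1 to bottom 4. Bottom 2 lay among the low top libraries although its H2-Aa and H2-Ab1 levels did not. The log2 fold change was 1.37 (SE 0.84, edgeR adjusted p = 0.666), and 2.29 without top 3 (SE 0.88, edgeR adjusted p = 0.359).

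**Figure D3:**
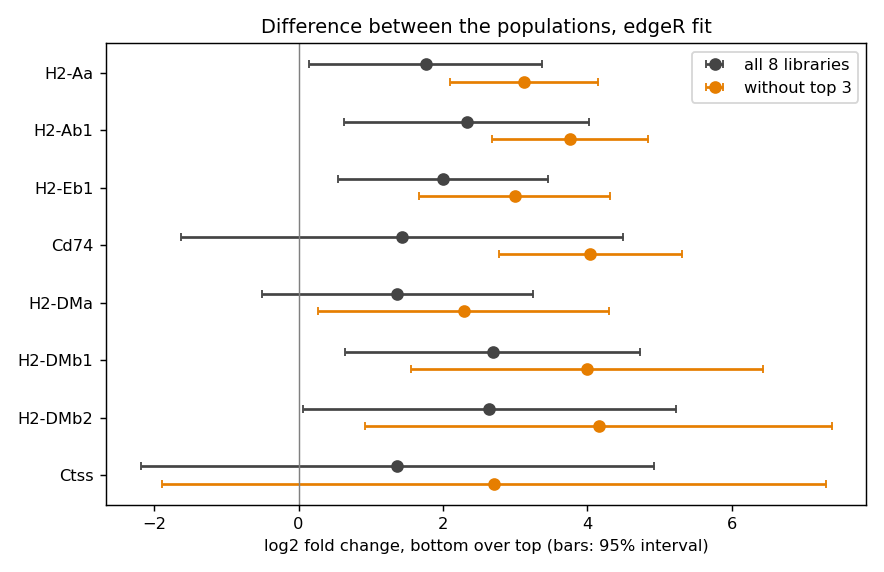
Log2 fold change of bottom over top for the 8 tested genes with its 95% interval from the edgeR fit, with all 8 libraries in grey and without top 3 in orange. All 16 estimates are above 0, the interval of Cd74 narrows from -1.63 to 4.50 with top 3 to 2.78 to 5.31 without it, and Ctss has the widest pair of intervals.

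Ciita, the transactivator of the class II promoters, was near the limit of detection. It had too few counts to pass the filter of the edgeR test with all 8 libraries or without top 3. It had 7 counts in top 3 and 0 in the other top libraries, and 35 and 26 counts in bottom 3 and bottom 4 and 0 in bottom 1 and bottom 2. All of its counts thus fell in batch 2, in 3 of its 4 libraries, while H2-Aa was as high as 307 and 343 CPM in bottom 1 and bottom 2, where a count of 0 allows up to 0.328 and 0.280 CPM of Ciita (3 counts). Summed over the populations, 61 counts in bottom against 7 in top give a ratio of 6.36 after scaling (exact 95% binomial interval 2.91 to 16.5, which covers counting error only). Without top 3 there were 0 counts in top, and a floor of 3 counts put in for the 3 libraries gives a ratio of 10.7 (interval 3.51 to 53.6). Within batch 2, where all of its counts lie, that floor in top 4, with top 3 left out, gives a ratio of 6.31. Its interval of 2.06 to 31.5 again covers counting error only. The edgeR fit of batch 2 alone, top 3 included, did test Ciita and did not call it (log2 fold change 2.76, edgeR adjusted p = 0.741). In batch 1 both populations were at 0. Every bottom count in these ratios comes from bottom 3 and bottom 4.

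Ctss, the endosomal cysteine protease that trims the invariant chain, did not follow the other members. It stood at 22.9, 0, 3.71 and 0 CPM in top 1 to top 4 and at 59.2, 19.3, 0.316 and 6.86 CPM in bottom 1 to bottom 4. The order was led by bottom 1 and top 1, and bottom 3, which had the highest H2-Aa level, was among the lowest. The log2 fold change was 1.37 (SE 1.59, 95% interval -2.19 to 4.92, edgeR adjusted p = 0.864), and 2.71 without top 3 (SE 2.00, edgeR adjusted p = 0.688). Summed intestinal epithelial markers were 1886, 182, 65.7 and 741 CPM in top 1 to top 4 and 28812, 6771, 96.4 and 41.0 CPM in bottom 1 to bottom 4, and their part in the level of Ctss was not tested.

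Within batches the difference kept its direction for all tested members but 1. In batch 1, which lacks top 3, the log2 fold changes were 2.50 for H2-Aa, 3.13 for H2-Ab1, 2.41 for H2-Eb1, 3.46 for Cd74 and 1.75 to 2.88 for the other 4 tested members. In batch 2, where top 3 is 1 of 2 top libraries, they were 1.02, 1.53 and 1.59 for the chains and 0.79 to 2.58 for the H2-DM genes. They were 0.96 for Ctss, -0.56 for Cd74 and 2.76 for Ciita, which was not tested in batch 1. No member passed in either batch (edgeR adjusted p = 0.296 to 0.850 in batch 1 and 0.682 to 0.979 in batch 2). The share of all genes that kept their direction in both batches was not computed. Top 4, of the same batch as top 3, had 38.9 CPM of H2-Aa and 6.19 of Cd74, the lowest levels of all libraries for both genes. The interaction of batch and population passed for 0 members, as for 0% of all tested genes (edgeR), and its unadjusted p was under 0.05 for 0 members beside 7.55% of all tested genes. For Cd74 that term was -4.07 (SE 1.94, edgeR adjusted p = 0.699).

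Top 3 was the highest top library for 7 of the 8 tested members, beside 28.8% of all tested genes. It stood 13.3-fold above the mean of the other 3 top libraries for H2-Aa, 11.9-fold for H2-Ab1, 9.01-fold for H2-Eb1, 8.91-fold for H2-DMa and 56.6-fold for Cd74, but 4.82-fold for H2-DMb1 and 3.88-fold for H2-DMb2. For 5 members it was at least 5 times the next highest top library, as for 1.33% of all tested genes, a limit set after the values were seen. Its insulin share of 26.6% was the lowest of the top libraries and still far above the 7.16% of bottom 4, the highest of the bottom.

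The balance between members differed in top 3 too. H2-Aa, H2-Ab1 and H2-Eb1 together stood at 5.68, 12.3, 1.77 and 10.6 times the level of Cd74 in top 1 to top 4, and at 4.19, 4.75, 7.54 and 5.41 times in bottom 1 to bottom 4. Top 3 thus had the lowest value of all 8 libraries, and the bottom libraries lay between it and top 2 and top 4. H2-Ab1 relative to H2-Aa was 0.535, 0.554, 0.456 and 0.412 in top 1 to top 4 and 0.669, 0.994, 0.571 and 0.776 in bottom 1 to bottom 4, so the populations did not overlap in this ratio, top 3 included. These ratios were picked after the values were seen and carry no test, and being ratios between genes of unequal length they are compared only between libraries.

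**Figure D4:**
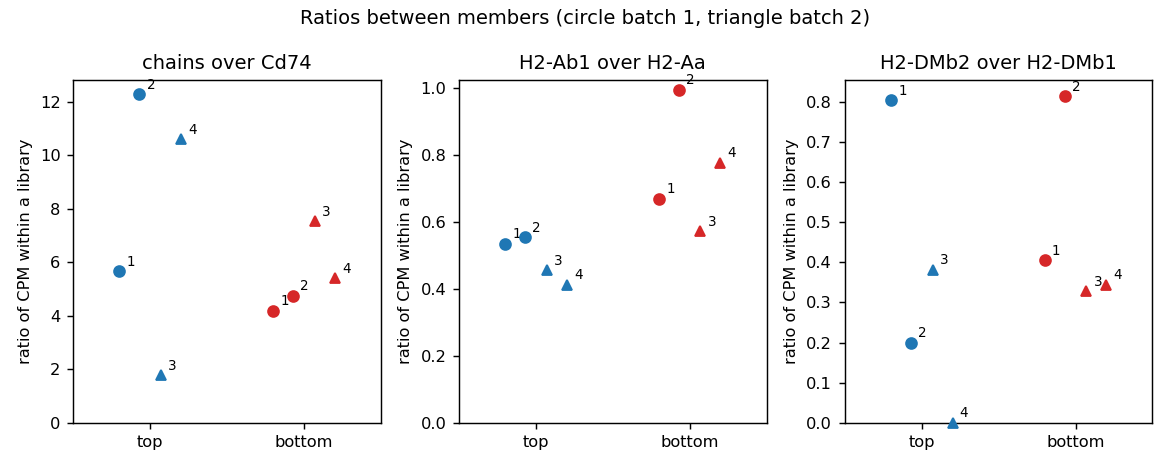
Ratios of CPM between members within each library, with top libraries in blue, bottom libraries in red, circles for batch 1, triangles for batch 2 and the library number beside each point. Top 3 has the lowest ratio of the 3 chains to Cd74, at 1.77, H2-Ab1 over H2-Aa is higher in each bottom library than in any top library, and H2-DMb2 over H2-DMb1 overlaps, with top 4 at 0 from 3 counts of H2-DMb1.

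Across the 8 libraries the chains, Cd74 and H2-DM genes tended to rise and fall together. By ranks H2-DMa did so less closely, with Spearman correlations of 0.43 (H2-DMb2) to 0.74 (H2-Eb1 and Cd74). The Pearson correlation of log2(CPM + 1) between 2 of these 7 genes ranged from 0.62 (H2-DMa with H2-DMb2) to 0.98 (H2-Aa with H2-Ab1), with a median of 0.85 over 21 pairs, and without top 3 from 0.67 to 0.99, with a median of 0.91. Between Ctss and these 7 genes it ranged from 0.09 to 0.57, and from 0.11 to 0.57 without top 3. These are descriptions over 8 points that share batch and population, and the correlations over all gene pairs were not computed. By the Pearson measure the 6 other tested genes most like the mean of the 8 members were Ttyh1, H2-D1, H2-K2, C920025E04Rik, Gpm6a and Sorcs2, at 0.95 to 0.98. H2-D1, a class I heavy chain, and the class I gene H2-K2 were also the 2 genes most like Cd74 (both 0.97), followed by Ly6e, an interferon-responsive surface protein (0.96). Cdkn2b, Lgr4 and Jup were most like Ctss, at 0.95 to 0.96. H2-D1 stood at 481, 417, 1499 and 393 CPM in top 1 to top 4 and at 1119, 1299, 1730 and 1267 CPM in bottom 1 to bottom 4, so top 3 again lay with the bottom libraries.

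None of the 39 tested genes of the surrounding pathway, in 5 lists, passed the edgeR test, with or without top 3. At an unadjusted p under 0.05, 3 were higher and 1 lower with all libraries, beside 10.3% of all tested genes in either direction. Without top 3, 9 were higher and 1 lower, beside 11.7% in either direction. DESeq2 called 1 of the 39 higher, beside 3.14% of all tested genes, and limma-trend 0, beside 0.665%. Of the complex on the X and Y boxes, 2 of 8 tested genes had positive log2 fold changes and the median was -0.42, or -0.47 without top 3. Its summed level was 167 to 219 CPM in top and 142 to 202 in bottom, and top 3, at 219 CPM, lay close to top 1, at 215. Rfx5, the DNA-binding subunit of RFX, had a log2 fold change of -0.25 (edgeR adjusted p = 0.930).

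Interferon gamma signalling genes were high in top 3 beside its class II genes. Of 8 tested genes 7 had positive values, with a median log2 fold change of 0.57, or 0.70 without top 3. Their sum stood at 692, 634, 1497 and 636 CPM in top 1 to top 4 and at 581, 742, 1280 and 1036 CPM in bottom 1 to bottom 4, so bottom 3, bottom 4 and top 3, all of batch 2, were the highest. Irf1, an interferon-induced transcription factor, stood at 690 CPM in top 3 against 158 to 200 in the other top libraries and 47.8 to 537 in bottom.

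Class I genes and their loading factors, which interferon gamma also induces, had the same outlier. All 10 were tested and 10 were positive. The median log2 fold change was 0.70, and 1.46 without top 3. Their sum stood at 3080, 2052, 9629 and 2017 CPM in top 1 to top 4 and at 4716, 4679, 9368 and 7379 CPM in bottom 1 to bottom 4. B2m, the light chain of class I, stood at 5827 CPM in top 3 against 979 to 1869 in the other top libraries, and Nlrc5, the class I counterpart of Ciita, named after its values were seen, at 171 CPM against 2.76 to 17.7.

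Endosomal proteases other than Ctss had values closer to 0. Of 9 tested genes 6 were positive, and the median log2 fold change was 0.26, or 0.63 without top 3. Cst3, the protease inhibitor cystatin C, stood at 820 to 1066 CPM in top and 988 to 1523 in bottom, and Ctsl, a protease that trims the invariant chain in thymic epithelium, at 220 to 434 and 227 to 260 CPM. Ctsh, another endosomal protease, stood at 0 to 10.5 CPM in top and 22.2 to 39.9 in bottom, and it passed in DESeq2 (log2 fold change 3.83, adjusted p = 0.00373) but not in edgeR (3.74, adjusted p = 0.299). Without top 3 its edgeR adjusted p was 0.262.

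The remaining class II genes had too few counts to be tested. H2-Oa and H2-Ob, which restrain H2-DM chiefly in B cells, had 231 and 1 counts over all 8 libraries. In bottom 3 H2-Oa stood at 21.4 CPM, against at most 0.794 in the other 7 libraries. H2-Eb2 had 52 counts. Of 8 genes of class II turnover and T cell costimulation, 4 were tested, with a median log2 fold change of 0.45, or 0.82 without top 3. March8, a ubiquitin ligase, ranged from 48.6 to 102 CPM in top and from 51.1 to 107 in bottom. Icam1, an adhesion ligand of T cells, ranged from 0 to 19.2 CPM in top and from 0 to 64.2 in bottom, and the costimulatory receptor Cd40 from 2.89 to 19.8 and from 0.0927 to 31.7 CPM. The other 4, named after their values were seen, were the costimulatory ligands Cd80, Cd86 and Icosl, with 5, 1 and 1 counts, and the class II ubiquitin ligase March1, with 1. Cd274 encodes PD-L1, which restrains T cells, and its level was 223 CPM in top 3 against 27.5 to 40.8 in the other top libraries and 60.1 to 98.5 in bottom.

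Summed pan-leukocyte markers stood below the summed class II genes in every library. Summed over 11 pan-leukocyte genes they stood at 41.0, 23.9, 45.3 and 17.5 CPM in top 1 to top 4 and at 44.2, 68.7, 25.4 and 35.8 CPM in bottom 1 to bottom 4, a difference of 11.6 CPM (two-sided exact permutation test over 70 relabellings, p = 0.371). Without top 3 the difference was 16.1 CPM (exact permutation p = 0.229). In every library but bottom 4, most of that sum came from Ptpn6, a phosphatase that epithelial cells express too, and Rac2. Ptprc, the common leukocyte antigen CD45, named after its values were seen, had 43 counts over all 8 libraries and was at 0 CPM in top 3 and at 2.95 CPM in bottom 3. Tyrobp of the same list, also named after its values were seen, went the other way. It stood at 4.95 CPM in top 3, 1.13 in top 2 and 0 in all other libraries. In top 3 the 9 class II genes summed to 1776 CPM beside 45.3 CPM of pan-leukocyte markers, and in top 1 to 169 CPM beside 41.0. These sums are over different genes and do not give cell numbers, and the part of leukocytes in the class II levels was not tested.

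Defining markers of macrophages and dendritic cells were at 0 counts, while others were detected. Of 15 macrophage genes in the table, Csf1r, Cd68, C1qb and C1qc had 0 counts in all 8 libraries, and the sum was 2.86 to 12.1 CPM in top and 1.78 to 33.0 in bottom, with Cd14, named after its values were seen, at 16.0 and 19.4 CPM in bottom 3 and bottom 4. The tested macrophage genes Cx3cr1 and C1qa were at most 2.84 and 2.69 CPM in any library. Of 10 dendritic cell genes, Itgax, Flt3, Cd209a, Clec10a and Batf3 had 0 counts in all 8, and the sum was 4.60 to 6.06 CPM in top and 4.30 to 10.4 in bottom, led by Xcr1, at 2.06 to 5.46 CPM over all libraries, and Ccr7, at 1.20 to 2.01. Of 9 B cell genes, Pax5 and Blk had 0 counts, and the sum was 7.66 to 39.2 CPM in top and 4.81 to 18.3 in bottom, with 27.7 of the 39.2 CPM of top 3 from Fcer2a. Summed T cell markers did not overlap, at 4.60 to 9.21 CPM in top and 13.6 to 18.8 in bottom, and top 3, at 7.67 CPM, lay among the other top libraries. Of the 3 tested alone, 0 had every bottom library above every top library, beside 3.31% of all tested genes. Lck and Cd8a, the highest tested of them, had 47 and 56 counts in top and 257 and 255 in bottom. Their log2 fold changes were 2.19 and 1.69 (edgeR adjusted p = 0.458 and 0.596). The others are named after their values were seen. Cd3e, Cd3d, Cd3g, Cd4, Cd8b1, Cd2, Cd5 and Cd28 had 1, 39, 4, 11, 9, 25, 1 and 19 counts in top. In bottom they had 1, 64, 3, 14, 13, 37, 1 and 19. The part of macrophages, dendritic cells, B cells and T cells in the class II levels was not tested. A count of 0 allows up to 0.278 to 0.476 CPM in a library (3 counts), if reads of the gene could be counted. In all 8 libraries 5974 of the 23366 genes were at 0, among them the beta cell factor Mafa. Whether a marker at 0 was missed by the quantification was not tested.

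Other cells that can carry class II were unevenly present in bottom. Summed endothelial markers were 0.124 to 9.21 CPM in top and 11.1 to 352 in bottom, fibroblast and stellate markers 0.251 to 12.5 and 5.68 to 1360, and lymphoid stroma markers, led by the chemokine Ccl19, 2.97 to 6.91 and 68.7 to 3679. Duct markers, led by keratins and other epithelial genes, were 572 to 932 CPM in top and 1365 to 2197 in bottom. In top 3 the endothelial, fibroblast and lymphoid stroma sums were 0.124, 0.371 and 2.97 CPM, the lowest or, for fibroblasts, next to the lowest of all libraries, beside its 1776 CPM of class II genes. Acinar markers were 34.2 to 242 CPM in top, with top 3 the highest, and 305 to 1514 in bottom. Among endocrine lists, PP cell markers were 1376 to 2534 CPM in top and 11403 to 92144 in bottom, beta cell markers 345524 to 507797 and 38926 to 81633, and alpha cell markers overlapped, at 65552 to 138425 and 29159 to 142477. The part of these cell types in the class II levels of either population was not tested.

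**Figure D5:**
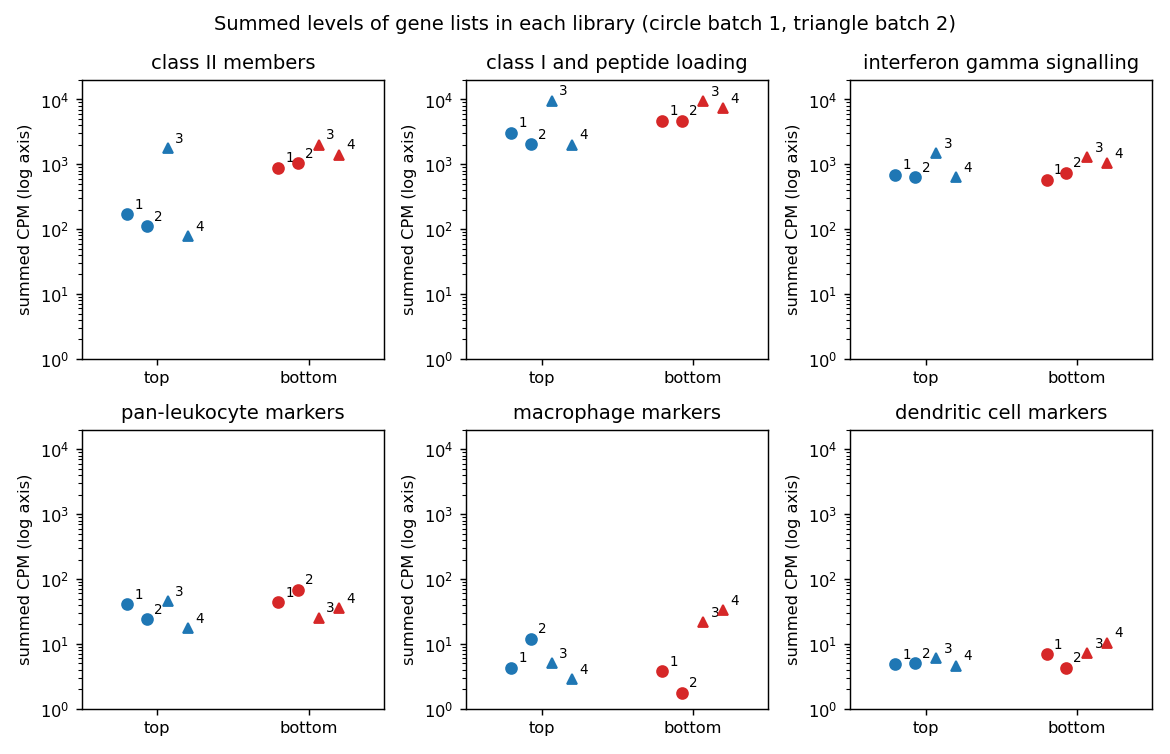
Summed CPM, on a log axis, of the 9 class II genes, of 2 related pathway lists and of 3 leukocyte marker lists in each library, with top libraries in blue, bottom libraries in red, circles for batch 1, triangles for batch 2 and the library number beside each point. Top 3 is set apart from the other top libraries in the upper 3 panels, at 1776, 9629 and 1497 CPM. In the lower 3 it stands at 45.3, 5.07 and 6.06 CPM, against 17.5 to 41.0, 2.86 to 12.1 and 4.60 to 5.02 in the other top libraries. Summed B cell markers, not drawn, were 39.2 CPM in top 3 against 7.66 to 20.7 in the other top libraries.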

How the data were processed

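The 9 genes and all gene lists were chosen with earlier results of these data known. Per the file headers the authors deposited RSEM expected counts per gene, 1 table per library and 1 of the whole series, which held the same values (largest difference 0). The submitters' processing notes list RSEM, edgeR and mm9. No aligner, annotation or version is given in the sources used here. Of the values, 34.8% were not whole, and all were rounded. edgeR 4.0.16 in R 4.3.3 tested bottom against top with TMM scaling, filterByExpr and the batch as covariate, with Benjamini-Hochberg adjustment over all 11721 genes tested, and the adjusted p threshold was 0.05. SE and 95% intervals come from the quasi-likelihood F and its degrees of freedom. The tested genes held at least 98.01% of each library's counts, and 1 count was worth 0.0927 to 0.159 CPM. CPM are not divided by gene length. On simulated data for this comparison the test recovered 38 of 95 genes changed by 3 on the log2 scale and 81 of 92 changed by 6, among 11331 genes. DESeq2 1.42.0, limma 3.58.1, other scalings and filters, single batches and omissions were the alternatives. All 9 genes are named, and the rule for other names was, of the pathway lists, the genes called and up to 4 with the highest mean CPM, and of the marker lists the 2 highest tested and those at 0. Ctsh, called by DESeq2 alone, and genes so marked were named after their values were seen. The values of a pathway gene are not reported here. Counts of reads amplified without molecular identifiers give intervals of counting error only. The labels do not state whether strand was kept. Proteins were not used here.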

Additional observations from a re-analysis of the deposited data

Results flagged for a closer look

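In groups of 4, a library was noted when its gap to the nearest other, divided by the range, exceeded Dixon's 95% critical value for 4 samples. Chance gives this in about 1 in 20 groups of independent, normally distributed values. It occurred in 15 of 60 groups, and in 7 of the 18 groups of single members. CPM were used without logarithms, most members rise and fall together, and top 3 was already known to stand apart. The counts therefore describe these groups and are not a test, and the share over all genes was not computed. Top 3 stood above the other top libraries for H2-Aa (671 CPM against 38.9 to 61.6), H2-Ab1 (306 against 16.0 to 32.9), H2-Eb1 (105 against 10.8 to 12.5), Cd74 (612 against 6.19 to 18.8), H2-DMa (39.2 against 1.76 to 6.04) and Ciita (0.866 against 0). It also did for the sums of interferon gamma signalling genes (1497 CPM against 634 to 692), class I genes (9629 against 2017 to 3080), acinar markers (242 against 34.2 to 56.2) and delta cell markers (5305 against 2655 to 3095). Top 1 stood above the other top libraries for Ctss (22.9 CPM against 0 to 3.71), and top 4 for fibroblast and stellate markers (12.5 against 0.251 to 1.44). Among bottom libraries, bottom 3 was highest for the other class II chains and H2-DO (23.7 CPM against 0.748 to 1.42), bottom 4 for endothelial markers (352 against 11.1 to 55.7) and bottom 2 for acinar markers (1514 against 305 to 446).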

How the results depend on the processing

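The number of class II genes called higher was 0 in the edgeR test with all libraries, 3 in DESeq2 and 0 to 3 when each library was left out in turn, the 3 arising only without top 3. Every other alternative run (3 scalings, no hormone counts, limma-trend, 2 filters, no batch term, each batch alone and the replicate block) gave 0, and none called a member lower. The log2 fold change turned sign for Cd74 in batch 2 alone (-0.56) and for Ctss with a replicate block of batch and title number (-0.85), and for no other member. In that replicate block only libraries numbered 1 in their titles share a block across populations, and the count of members called stayed 0. The deviations of these libraries correlated at 0.09 and -0.00 across genes. Each is a deviation from a mean of only 2 libraries, so this cannot decide whether the numbers pair the libraries. The labels do not give their meaning. Scaling by library totals alone shifted all genes by 0.33 on the log2 scale and kept 8 of 8 members positive. Counts of all genes called moved more than those of members. Against 33 higher and 19 lower, DESeq2 gave 368 and 219, limma-trend 78 and 59, no low-count filter 136 and 68, batch 1 alone 2 and 0, batch 2 alone 2 and 0 and the block 0 and 0. Library totals alone gave 55 higher and no batch term 18 higher, and single omissions 3 to 36 higher and 5 to 24 lower, the lowest without top 2. Omitting any library but bottom 1 moved one of these counts by over 1.5 times, and without top 3 they were 17 and 11. The 8 omissions left the summed H2-DMb genes at 2.28 to 4.08 and the pan-leukocyte difference at 3.24 to 17.7 CPM, neither called. Ctsh was called in DESeq2 alone. Low counts limit Ciita, Ctss and H2-DMb2 in top, where 1 or more libraries held 0 counts.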
